A study of Caenorhabditis elegans with 15 samples.

Results

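Alternative splicing of whole runs of exons, and the choice between paired alternative exons, was described in 15 RNA sequencing libraries of Caenorhabditis elegans with mutations in the spliceosome-associated proteins KIN17 and PRCC. The members were the annotated events of 2 classes: multiple skipped exons (MS), where 2 or more neighbouring exons are either all included or all skipped, and mutually exclusive exons (MX), where a transcript carries either one or the other of 2 exons. Events were taken where they had a value in all 15 libraries, which left 231 members (159 MS and 72 MX) of 2285 annotated events of 6 classes, out of 247 MS and MX events (175 and 72) with a value in at least 1 library. All 159 MS members had 2 or more exons in the included form and none between the flanking exons in the other. All 72 MX members had 1 exon in each form, and in 57 of them the 2 exons were separate in the genome. Separate exons are not always exclusive: in unc-53, lev-11 and F49E2.5 an MS member includes the same 2 exons together. In the other 15 the exons of the 2 forms overlap. Such an event is 1 exon with both of its ends moved, a paired shift of splice sites and not a choice between separate exons. The value of an event is its PSI, the percentage of the score of both forms that falls to the included form. For MX events the included form is 1 of the 2 alternatives, and in all 57 pairs of separate exons it was the upstream one in transcript order.

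Of 5 strains with 3 libraries each, from separate RNA isolations, KIN17(K23N) carries dxbp-1(az121) with unc-73(e936az30) on chromosome I, KIN17(M107I) carries dxbp-1(az52) with unc-73(az63) on chromosome I, PRCC(I371F) carries prcc-1(az122) on chromosome IV, PRCC(null) carries prcc-1(gk5556) on chromosome IV, and the smg-4 control has neither gene mutated. All 5 strains carry smg-4(az152) on chromosome V, which removes nonsense-mediated decay of transcripts with early stop codons, so forms that decay would clear in wild type can be seen in every group. dxbp-1 is the worm gene for KIN17; both KIN17 strains also carry unc-73 alleles that the control does not, and gk5556 deletes the whole coding region of prcc-1. RNA came from mixed-stage whole worms at 20 °C, so a change in the share of a tissue or stage and a change of splicing within cells cannot be told apart in any result. KIN17(M107I) and PRCC(null) were numbered in a later set of libraries than KIN17(K23N), PRCC(I371F) and the control, so for those 2 strains the library set and the genotype cannot be told apart.

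A run of exons or a pair of exclusive exons is chosen while the spliceosome pairs splice sites across introns. Skipping joins the exons that flank the run, and in exclusive splicing either exon of the pair, but not the other, is joined to both flanks. In C. elegans, exclusive exons are known from genes such as egl-15, let-2 and unc-32, where RNA-binding proteins choose the exon by tissue or stage. KIN17 and PRCC are spliceosome-associated proteins, and the study proposes that they act after the splice sites have first been recognised.

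Each library gave a PSI for 239 to 246 of the 247 MS and MX events, and for 2416 to 2499 of the 2560 annotated events. The files hold scores and no reads, so the depth behind a PSI is unknown, and no counting interval is given. The scores of both forms of an event add up to at most 1000, and the sum was at least 500 in all 15 libraries for 173 of the 231 members, against 2114 of all 2285 annotated events; what the sum measures is not given in the sources used here, and it is given beside each called event where it fell under 200 in a library. The mean absolute difference in PSI between 2 libraries of a strain ran from 1.8 to 3.9 percentage points over MS members and from 3.9 to 6.4 over MX members, against 2.3 to 5.1 and 4.6 to 8.6 between strains.

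The MS members mostly kept their exons. The median PSI of a library over the 159 members lay between 93.2% and 98.5%, and between 30.2% and 44% of them stood at 100% in a given library. In smg-4 control, 95 of the 159 had a mean PSI over 90%, 34 lay between 20% and 80% and 12 were under 10%. The runs held 2 exons in 96 members, 3 in 27 and 4 in 17, and up to 16 exons, with a median of 468 nt of exon sequence and a median of 142 nt per exon. The length of the run was a multiple of 3 in 113 of 159 (71.1%), so that inclusion and skipping would keep the same reading frame if the exons are coding. That share was 63.2% of the 95 members over 90% PSI, 76.5% of the 34 between 20% and 80%, and all 12 of those under 10%.

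The MX members were spread over the whole scale. Their median PSI lay between 38.8% and 47.8% in a library, and 42 of 72 had a control mean between 20% and 80%, with 4 over 90% and 13 under 10%. In the 57 pairs of separate exons the median length was 123 nt for the included exon and 138 nt for the other, the difference was a multiple of 3 in 49, and 10 pairs had exons of exactly the same length. In the 15 members with overlapping forms the medians were 248 nt and 195 nt and the difference was a multiple of 3 in 10. The control mean lay between 20% and 80% in 35 of the 57 and 7 of the 15. A gene name was assigned to 222 of the 231 members (142 genes). Several members describe 1 stretch of a gene: the 159 MS events fell in 106 non-overlapping loci, with 13 in F49E2.5, 6 in pat-12 and 5 each in sma-9 and sup-26, and the 72 MX events in 56 loci, with 6 in mrp-1, 4 in unc-32 and 3 each in gly-5 and lev-11. Such members share exons and are not independent.

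**Figure D1:**
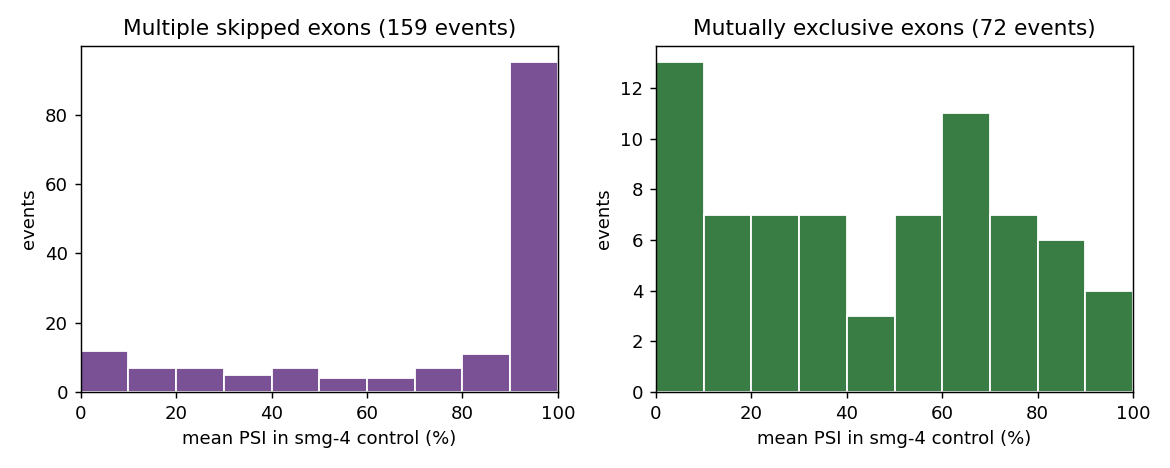
Number of events (vertical axis) by mean PSI of the 3 smg-4 control libraries (horizontal axis, in bins of 10%), for the 159 multiple skipped and the 72 mutually exclusive members. The MS members pile up over 90% (95 events), while the MX members are spread out, with 42 between 20% and 80%.

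Replicates of a strain differed more for MX than for MS members: the median SD within strains was 3.7 percentage points over the 72 MX and 1.8 over the 159 MS members, with the 75th percentile at 6.4 and 3.7. Over the 138 MS members that were not at 100% in all 15 libraries the median was 2.3. The events with the widest replicate scatter were dur-1 (a gene named for higher expression in dauer larvae) and pef-1 (a protein phosphatase with EF-hands) among MS members and mrp-1 (an ABC transporter), slo-1 (the BK potassium channel) and cca-1 (a T-type calcium channel) among MX members. The 5-exon run of dur-1 (MS.0000042) had a PSI of 92.5%, 87.2% and 48.9% in KIN17(K23N), 90.6%, 93.3% and 81.3% in KIN17(M107I), 63.7%, 94.6% and 92% in PRCC(I371F), 73.8%, 73.7% and 86.2% in PRCC(null), against 92%, 81.6% and 86.1% in smg-4 control. Single libraries of KIN17(K23N) and PRCC(I371F) were far below their replicates, and the score sum of this event ranged from 23.8 to 601.9. The other dur-1 member (MS.0000044), which lacks the 54 nt exon, shared these low libraries. pef-1 (MS.0000089) stood at 100% in 13 of 15 libraries and at 53.8% in KIN17(K23N) replicate 3 and 86.4% in PRCC(I371F) replicate 1. For cca-1 (MX.0000012) the PSI was 78.6%, 41.2% and 100% in KIN17(K23N), 63.6%, 66.7% and 71.1% in KIN17(M107I), 81.5%, 72% and 88.9% in PRCC(I371F), 68.4%, 45.5% and 77.3% in PRCC(null), against 50%, 52.4% and 62.5% in smg-4 control. Of the mutant strains, KIN17(M107I) and PRCC(I371F) had all 3 libraries above the control's, and for PRCC(I371F), +25.8 percentage points from the control, limma gave an adjusted p of 0.727. For slo-1 (MX.0000048), whose 2 exons are both 113 nt, the PSI was 6.2%, 50% and 37.5% in KIN17(K23N), 44.1%, 35.6% and 45.5% in KIN17(M107I), 36.8%, 44.7% and 54.3% in PRCC(I371F), 29.6%, 61.4% and 47.1% in PRCC(null), against 21.9%, 33.3% and 50% in smg-4 control, so that each strain overlapped the control. The mrp-1 pair MX.0000059 was 66.7%, 33.3% and 46.2% in KIN17(K23N), 50%, 30% and 52% in KIN17(M107I), 37.5%, 36.4% and 80% in PRCC(I371F), 66.7%, 85.7% and 46.2% in PRCC(null), against 66.7%, 27.3% and 33.3% in smg-4 control. No strain was called against the control by limma for these 6 events at an adjusted p of 0.05.

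To ask which members changed in each mutant strain, PSI was compared with smg-4 control in 2 ways. The first is the rule used in the study: the mutant and control libraries are compared in all 9 pairs, every pair must differ by more than 15 percentage points in 1 direction, and the means by more than 20. The second is limma on the log2 odds of PSI, fitted over all 2285 annotated events with Benjamini-Hochberg adjustment over all of them. An exact permutation test of 3 against 3 libraries cannot go below p = 0.1, so it makes no call. The 4 comparisons share the 3 control libraries and are not independent.

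By the 9-pair rule, 1 member passed in KIN17(K23N), where 1.49% of all annotated events did, 3 members passed in KIN17(M107I) (0.7% of all), 1 member in PRCC(I371F) (0.481% of all) and 3 members in PRCC(null) (1.66% of all). The study took PSI from junctionCounts, not from the summed scores used here, and also inspected events in a genome browser. It lists 1 mutually exclusive event in KIN17(K23N) and none of these 2 classes in KIN17(M107I), PRCC(I371F) and PRCC(null). At a limma adjusted p of 0.05 with an average difference over 20 percentage points, 2 members passed in KIN17(K23N) (2.67% of all annotated events), 3 members in KIN17(M107I) (0.788% of all), 3 members in PRCC(I371F) (0.394% of all) and 3 members in PRCC(null) (2.32% of all). At an adjusted p of 0.05 with no threshold on the difference, 25 members were called in KIN17(K23N), of which 15 had higher and 10 lower PSI, where 8.84% of all annotated events were called (4.86% higher, 3.98% lower). KIN17(M107I) had 9 members called, 6 higher and 3 lower (3.5% of all, 1.93% higher and 1.58% lower). PRCC(I371F) also had 9, with 3 higher and 6 lower (2.06% of all, 1.18% higher and 0.875% lower). PRCC(null) had 25, with 12 higher and 13 lower (9.41% of all, 5.91% higher and 3.5% lower). All 3 mutant libraries lay on 1 side of all 3 control libraries in 52 members for KIN17(K23N) (20.0% of all annotated events), 48 for KIN17(M107I) (18.1% of all), 35 for PRCC(I371F) (16.1% of all) and 66 for PRCC(null) (26% of all). By class, the called members were 11 MS and 14 MX in KIN17(K23N), 5 and 4 in KIN17(M107I), 8 and 1 in PRCC(I371F), and 17 and 8 in PRCC(null). As shares these were 6.92% of MS and 19.4% of MX members in KIN17(K23N), 3.14% and 5.56% in KIN17(M107I), 5.03% and 1.39% in PRCC(I371F), and 10.7% and 11.1% in PRCC(null). The calls were close to the threshold in many cases: with each of the 6 libraries of a comparison left out in turn, 11 of 25, 1 of 9, 1 of 9 and 12 of 25 stayed called every time, and with only the 6 libraries of a comparison in the fit no member passed an adjusted p of 0.05 with a difference over 20 percentage points in any of the 4 strains. With the included score in place of PSI, 12 of 25, 2 of 9, 3 of 9 and 17 of 25 kept their direction and their call, and each loss is given with its event. Of the 18 MX members called in at least 1 strain, 13 were pairs of separate exons and 5 were overlapping forms of 1 exon (npp-21, pign-1, nck-1, trak-1 and asns-2).

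**Figure D2:**
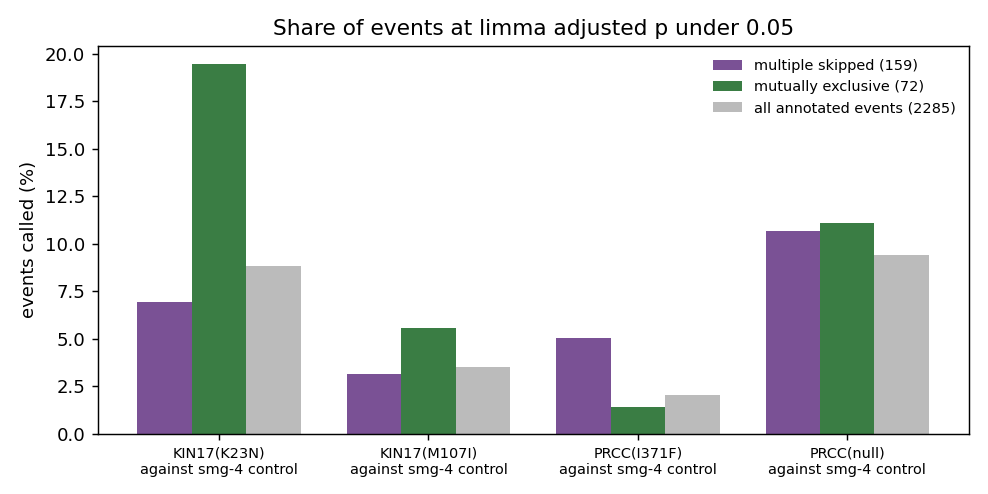
Percentage of events at a limma adjusted p of 0.05 (vertical axis) in each mutant strain against smg-4 control (horizontal axis), for MS members, MX members and all 2285 annotated events. The MX share in KIN17(K23N), 19.4%, is the one farthest, in percentage points, from its background of 8.84%. It stands for 14 of 72 members in 11 loci, so the calls are not all independent.

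**Figure D3:**
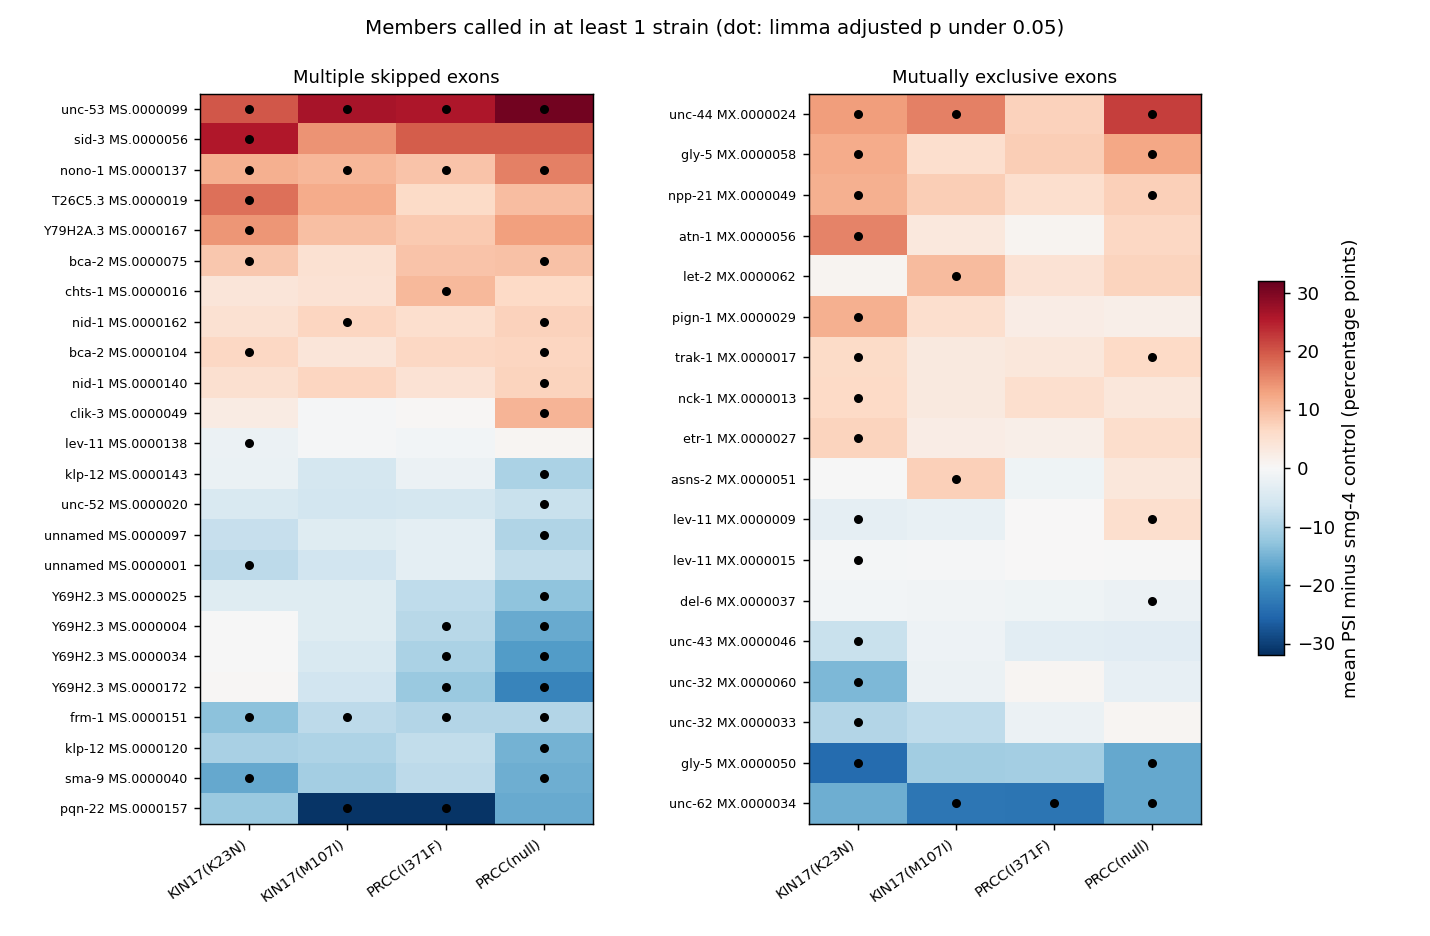
Mean PSI minus smg-4 control in percentage points (colour, red higher and blue lower) for the 24 MS and 18 MX members called in at least 1 strain (rows), in the 4 mutant strains (columns); a dot marks a limma adjusted p under 0.05. unc-53 is highest and pqn-22 lowest in the MS panel, gly-5 (MX.0000050 in KIN17(K23N)) is lowest in the MX panel, and the 4 Y69H2.3 rows are lower in both PRCC strains.

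Among the MS members, the difference reached furthest above the control in unc-53, which encodes a cytoskeleton-binding guidance protein for migrating cells and axons, the worm relative of the NAV proteins. The event (MS.0000099, chromosome II, 11061007 to 11062118, minus strand, ce10) concerns 2 coding exons of 123 and 213 nt. Their joint inclusion was 59.5%, 55.3% and 73.4% in KIN17(K23N), 68.7%, 66.7% and 72.2% in KIN17(M107I), 72%, 62.5% and 71.2% in PRCC(I371F), 73.1%, 74.7% and 73.3% in PRCC(null), against 50%, 43.8% and 34.5% in smg-4 control. All 12 mutant libraries lay above all 3 control libraries, the lowest at 55.3% in KIN17(K23N) replicate 2 against the highest control at 50%. The difference was +19.97, +26.4, +25.8 and +30.9 percentage points in the 4 strains (limma adjusted p = 0.0373, 0.0285, 0.0352 and 0.00377); on the log2 odds scale the PRCC(null) difference was 1.87 ± 0.30 (SE). The PRCC(null) call held with any 1 library left out, while the KIN17(K23N) call was lost without KIN17(K23N) replicate 1 or 3 or smg-4 control replicate 2 or 3, at an adjusted p = 0.0669 to 0.118, the KIN17(M107I) call without KIN17(M107I) replicate 1, 2 or 3 or smg-4 control replicate 2 or 3, at an adjusted p = 0.0603 to 0.0823 and the PRCC(I371F) call without PRCC(I371F) replicate 1, 2 or 3 or smg-4 control replicate 2 or 3, at an adjusted p = 0.0533 to 0.0946. The score sum was 113.9 to 429.6, and the score of the included form taken alone gave no call in any strain (adjusted p = 0.733 in PRCC(null)). An MX member spans the same 2 exons (MX.0000005): the 123 nt exon was favoured over the 213 nt exon at 99.6% ± 0.7, 96.8% ± 1.4, 98.6% ± 1.3 and 97.8% ± 2.1 in the mutant strains in that order, against 98.4% ± 2.8 in smg-4 control (SD, n = 3 each).

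In pqn-22, which encodes a protein with a glutamine- and asparagine-rich region, a run of 3 exons of 57, 132 and 66 nt (MS.0000157, chromosome IV, 6022928 to 6024775, minus strand) was included less. PSI was 58.1%, 58.3% and 37.9% in KIN17(K23N), 31.7%, 38.3% and 25.7% in KIN17(M107I), 25%, 36.6% and 34.7% in PRCC(I371F), 45%, 48% and 48.5% in PRCC(null), against 62.9%, 62.3% and 64.9% in smg-4 control. The 3 control libraries were tight, and those of KIN17(M107I), PRCC(I371F) and PRCC(null) all lay below 50%; KIN17(K23N) reached up to 58.3%, still below the control. PSI fell by 31.5 points in KIN17(M107I) and by 31.3 in PRCC(I371F) (adjusted p = 0.023 and 0.0287), and the event passed the 9-pair rule in both. The differences of -11.9 in KIN17(K23N) and -16.2 in PRCC(null) were not called (adjusted p = 0.273 and 0.109). The KIN17(M107I) call was lost without KIN17(M107I) replicate 1 or 3 or smg-4 control replicate 2, at an adjusted p = 0.0684 to 0.0702 and the PRCC(I371F) call without PRCC(I371F) replicate 1 or 2 or smg-4 control replicate 2 or 3, at an adjusted p = 0.0533 to 0.072. The score sum ran from 199.3 to 564.2, and on the included score alone the differences turned to +1.56 points in both strains (adjusted p = 0.555 and 0.58) and to +6.27 in PRCC(null) (adjusted p = 0.0055).

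sid-3 encodes a tyrosine kinase of the ACK family that promotes the import of double-stranded RNA. Its run of 3 coding exons of 115, 74 and 132 nt (MS.0000056, chromosome X, 17189071 to 17190700, plus strand) was included at 79.2%, 66.5% and 88% in KIN17(K23N), 62.7%, 63.5% and 73.8% in KIN17(M107I), 65.1%, 68.8% and 81.1% in PRCC(I371F), 70.4%, 74.4% and 70.4% in PRCC(null), against 51.6%, 48.3% and 56.8% in smg-4 control. No mutant library overlapped the control. The increase of +25.7 percentage points in KIN17(K23N) was called (adjusted p = 0.0297), but not without KIN17(K23N) replicate 1 or 3 or smg-4 control replicate 1, 2 or 3, at an adjusted p = 0.0506 to 0.105. The other strains differed by +14.4, +19.5 and +19.5 points in KIN17(M107I), PRCC(I371F) and PRCC(null) and were not called (adjusted p = 0.39, 0.212 and 0.129).

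**Figure D4:**
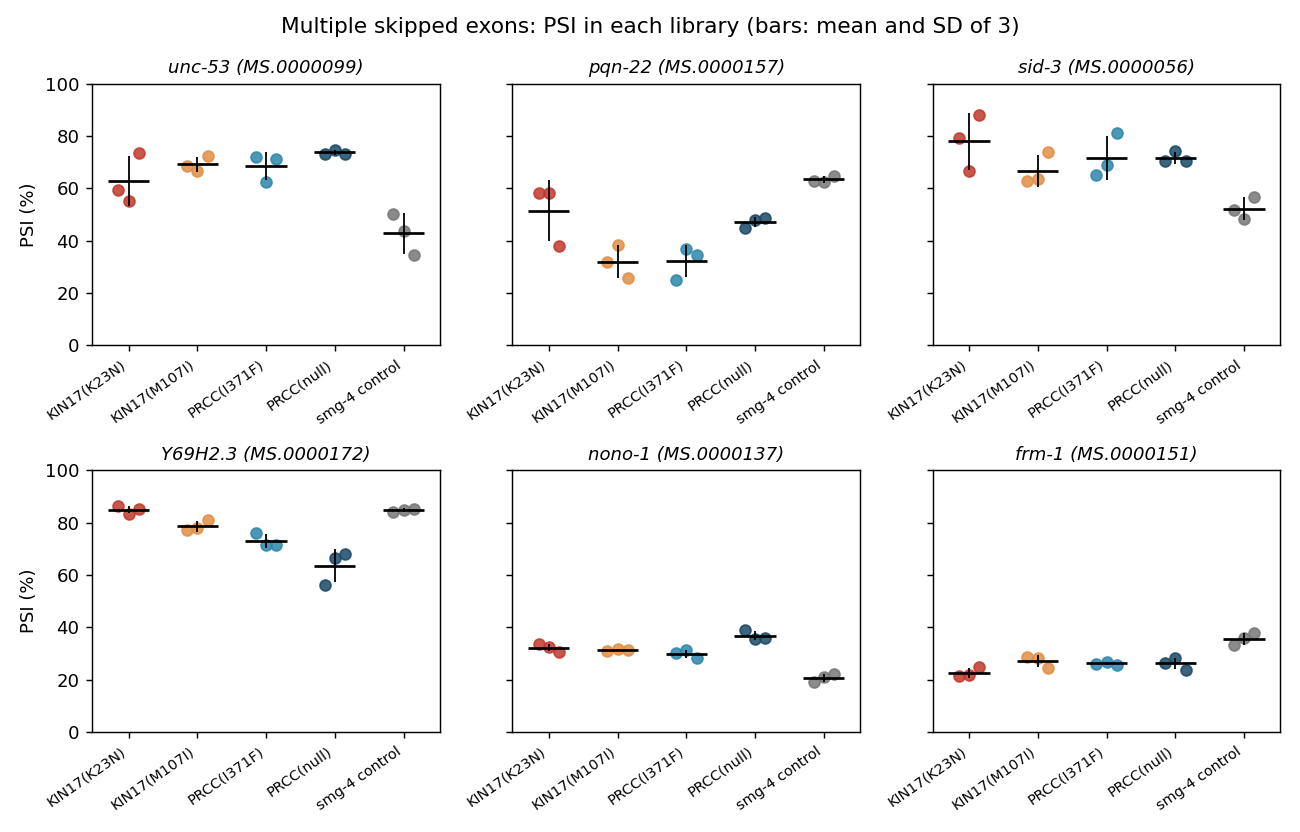
PSI in percent (vertical axis) of 6 MS events in each of the 15 libraries, by strain (horizontal axis); points are libraries, horizontal lines the mean of 3 and vertical lines 1 SD. In unc-53, sid-3 and nono-1 all 12 mutant libraries lie above the 3 control libraries, in pqn-22 and frm-1 all 12 lie below, and in Y69H2.3 the PRCC(null) libraries are lowest.

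Events with smaller but tighter differences were found at an adjusted p of 0.05 alone; they were picked out after their values were seen. nono-1 encodes the worm relative of the NONO and SFPQ family of nuclear RNA-binding proteins. Its run of 302, 96 and 197 nt (MS.0000137, chromosome III, 5954272 to 5957997, minus strand) was included at 33.6%, 32.3% and 30.7% in KIN17(K23N), 30.8%, 31.7% and 31.3% in KIN17(M107I), 30.1%, 31.3% and 28.3% in PRCC(I371F), 39%, 35.5% and 36% in PRCC(null), against 19%, 21.2% and 22% in smg-4 control. All 12 mutant libraries exceeded the highest control library, 22%. The increases were +11.5, +10.5, +9.2 and +16.1 percentage points (adjusted p = 0.000451, 0.00192, 0.00204 and 2.1e-05). Each call held with any 1 library left out. The length of this run is not a multiple of 3. In frm-1, which encodes a FERM domain protein, 2 coding exons of 237 and 117 nt (MS.0000151, chromosome I, 14878882 to 14881163, minus strand) went the other way: 21.5%, 21.7% and 24.8% in KIN17(K23N), 28.8%, 28.3% and 24.6% in KIN17(M107I), 26.1%, 26.9% and 25.7% in PRCC(I371F), 26.4%, 28.3% and 23.9% in PRCC(null), against 33.1%, 35.9% and 37.9% in smg-4 control. All mutant libraries were below the lowest control library. PSI fell by 13, 8.4, 9.4 and 9.5 points (adjusted p = 0.00122, 0.0329, 0.0302 and 0.00634). The KIN17(K23N) and PRCC(null) calls held with any library left out, whereas the KIN17(M107I) call was lost without KIN17(M107I) replicate 1, 2 or 3 or smg-4 control replicate 2 or 3, at an adjusted p = 0.0646 to 0.103 and the PRCC(I371F) call without PRCC(I371F) replicate 1, 2 or 3 or smg-4 control replicate 2 or 3, at an adjusted p = 0.0661 to 0.0742. On the included score alone these last 2 calls were also lost (adjusted p = 0.0521 in KIN17(M107I) and 0.0701 in PRCC(I371F)).

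Y69H2.3 held 4 overlapping MS members on chromosome V, 18661060 to 18662783, minus strand, that take up to 3 exons (192, 195 and 90 nt in MS.0000004). For this event PSI was 91.8%, 90.1% and 90.7% in KIN17(K23N), 86.2%, 85.9% and 88.6% in KIN17(M107I), 84.9%, 80.3% and 80.6% in PRCC(I371F), 69.4%, 76.1% and 79.1% in PRCC(null), against 90.3%, 90.8% and 91.6% in smg-4 control. KIN17(K23N) overlapped the control, and the libraries of the other 3 strains lay below it, with PRCC(null) lowest. PSI fell by 16.1 points in PRCC(null) and by 9.0 in PRCC(I371F) (adjusted p = 0.000343 and 0.0259), against -0.1 and -4 in KIN17(K23N) and KIN17(M107I) (adjusted p = 1 and 0.155). The run without the 90 nt exon (MS.0000034) fell by 17.8 points in PRCC(null) and 10.1 in PRCC(I371F), the run of 195 and 90 nt (MS.0000025) by 12.9 in PRCC(null), and the run of 192 and 123 nt (MS.0000172) by 21.1 in PRCC(null) and 11.8 in PRCC(I371F) (adjusted p = 0.000203, 0.0168, 0.00199, 0.000362 and 0.0299 in this order). MS.0000172 also passed the 9-pair rule in PRCC(null), with PSI of 56.3%, 66.5% and 68% in PRCC(null), against 83.9%, 84.8% and 85.4% in smg-4 control, but its score sum was 53.5 to 220.4, and on the included score alone it turned to +5.58 points in PRCC(null) and +3.92 in PRCC(I371F) (adjusted p = 0.000476 and 0.014). All 4 PRCC(null) calls held with any library left out; in PRCC(I371F), MS.0000004 was lost without PRCC(I371F) replicate 2 or 3 or smg-4 control replicate 2 or 3, at an adjusted p = 0.0588 to 0.0794, MS.0000034 without PRCC(I371F) replicate 2 or smg-4 control replicate 2 or 3, at an adjusted p = 0.0533 to 0.0569 and MS.0000172 without PRCC(I371F) replicate 2 or 3 or smg-4 control replicate 2 or 3, at an adjusted p = 0.0656 to 0.0798. These members share exons and count as 1 locus. The direct test of PRCC(null) against PRCC(I371F) gave differences of -7.1 points for MS.0000004 and -9.4 for MS.0000172 (adjusted p = 0.157 and 0.135).

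klp-12, a kinesin gene, had 2 members that share a 183 nt exon (chromosome IV, 11342878 to 11346039, minus strand). For 183 plus 249 nt (MS.0000120) PSI was 17.4%, 16.7% and 18.8% in KIN17(K23N), 15.8%, 22.3% and 16.4% in KIN17(M107I), 17.6%, 19.6% and 23.7% in PRCC(I371F), 12.8%, 13.9% and 12.3% in PRCC(null), against 36.3%, 24.3% and 23.6% in smg-4 control, and for 183 plus 174 nt (MS.0000143) it was 26.5%, 24.7% and 25.7% in KIN17(K23N), 21.8%, 24.6% and 20.5% in KIN17(M107I), 25.8%, 26.7% and 25.2% in PRCC(I371F), 17.6%, 19.3% and 16.3% in PRCC(null), against 30.4%, 25.4% and 27.9% in smg-4 control. PRCC(null) had the lowest libraries in both. It fell by 15.1 and 10.2 points in PRCC(null) (adjusted p = 0.00634 and 0.000986), in every leave-one-out fit and on the included score alone, and was not called in the other 3 strains. sma-9, the worm Schnurri zinc finger gene of the BMP-like body size pathway, had 2 coding exons of 452 and 76 nt (MS.0000040, chromosome X, 10773866 to 10776174, plus strand) with a control mean near the middle of the scale: 33.3%, 31% and 40% in KIN17(K23N), 39.6%, 41.3% and 40.3% in KIN17(M107I), 45.5%, 40.8% and 41.9% in PRCC(I371F), 26.7%, 41.4% and 39% in PRCC(null), against 52.6%, 44.7% and 56.2% in smg-4 control. PSI fell by 16.4 points in KIN17(K23N) and 15.5 in PRCC(null) (adjusted p = 0.0362 and 0.0428); these calls were lost without KIN17(K23N) replicate 1 or 2 or smg-4 control replicate 1 or 3, at an adjusted p = 0.09 to 0.128 and without PRCC(null) replicate 1 or 3 or smg-4 control replicate 1 or 3, at an adjusted p = 0.0679 to 0.136, and both on the included score alone (adjusted p = 0.235 and 0.133). T26C5.3 (MS.0000019, 54 and 212 nt, chromosome II, 9242244 to 9244045, plus strand) was at 56%, 54.5% and 57.9% in KIN17(K23N), 45.2%, 49.5% and 56.2% in KIN17(M107I), 48.7%, 37.3% and 47.9% in PRCC(I371F), 49.8%, 49.2% and 46.5% in PRCC(null), against 40.6%, 34.4% and 40.4% in smg-4 control. It rose by 17.6 points in KIN17(K23N) (adjusted p = 0.00834), in every leave-one-out fit, but its score sum was 228.8 to 419.6, and on the included score alone the difference was -1.11 points (adjusted p = 0.331).

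nid-1 (nidogen, a basement membrane protein) held 2 members that share 3 exons (chromosome V, 12913976 to 12916490, plus strand): the 3-exon run (MS.0000140) was at 14%, 10.1% and 11.8% in KIN17(K23N), 14.1%, 12.5% and 14.6% in KIN17(M107I), 13.5%, 9.9% and 11.1% in PRCC(I371F), 12.9%, 19.4% and 9.9% in PRCC(null), against 7.6%, 5.9% and 7.4% in smg-4 control, and rose by 7.1 points in PRCC(null) (adjusted p = 0.0289). The 4-exon run (MS.0000162) rose by 7.3 in PRCC(null) and 7.0 in KIN17(M107I) (adjusted p = 0.0207 and 0.0424). All 12 mutant libraries were above the control in both runs. The MS.0000162 call of KIN17(M107I) was lost with any 1 library left out, the PRCC(null) call without PRCC(null) replicate 2 or smg-4 control replicate 2, at an adjusted p = 0.0539 to 0.082, and the MS.0000140 call without PRCC(null) replicate 1 or 2 or smg-4 control replicate 1, 2 or 3, at an adjusted p = 0.0517 to 0.109. unc-52 (perlecan, of the muscle basement membrane) had a run of 89 and 190 nt (MS.0000020, chromosome II, 14659460 to 14661862, minus strand) at 4.9%, 4.9% and 4.4% in PRCC(null), against 7.8%, 15% and 12.6% in smg-4 control, which fell by 7.1 points (adjusted p = 0.0311; lost without PRCC(null) replicate 1, 2 or 3 or smg-4 control replicate 2 or 3, at an adjusted p = 0.0748 to 0.121). clik-3, a calponin-like gene, had 2 coding exons of 150 and 147 nt (MS.0000049, chromosome I, 3421161 to 3424179, plus strand) at 22.8%, 17.5% and 18.1% in KIN17(K23N), 16.8%, 16.8% and 16.4% in KIN17(M107I), 16%, 20.5% and 15.3% in PRCC(I371F), 31.3%, 27.9% and 23.8% in PRCC(null), against 19.3%, 16.8% and 14.6% in smg-4 control; it rose by 10.8 points in PRCC(null), the one strain called (adjusted p = 0.0144; lost without PRCC(null) replicate 1 or smg-4 control replicate 3, at an adjusted p = 0.0502 to 0.0536). The carbonic anhydrase gene bca-2 held 2 overlapping runs (chromosome IV, 17097905 to 17100020, minus strand): MS.0000104 was at 90.3%, 89% and 89.3% in KIN17(K23N), 87.2%, 88.8% and 84.4% in KIN17(M107I), 89.1%, 91.6% and 88.4% in PRCC(I371F), 91.8%, 90.2% and 87.7% in PRCC(null), against 85.2%, 82% and 81.9% in smg-4 control, and rose by 6.5 points in KIN17(K23N) and 6.9 in PRCC(null) (adjusted p = 0.0294 and 0.0201; lost without KIN17(K23N) replicate 1, 2 or 3 or smg-4 control replicate 2 or 3, at an adjusted p = 0.0584 to 0.102 and without PRCC(null) replicate 1 or 2 or smg-4 control replicate 2 or 3, at an adjusted p = 0.0583 to 0.0755). Its partner MS.0000075 rose by 8.5 and 9.3 points (adjusted p = 0.0296 and 0.0181) with a score sum of 68.1 to 161.8, and on the included score alone gave -1.65 and -2.02 points; its calls were lost without KIN17(K23N) replicate 1, 2 or 3 or smg-4 control replicate 2 or 3, at an adjusted p = 0.0509 to 0.102 and without PRCC(null) replicate 1 or 2 or smg-4 control replicate 2 or 3, at an adjusted p = 0.0539 to 0.0667. The remaining MS calls against the control outside lev-11 were Y79H2A.3 (MS.0000167) at +14.1 points in KIN17(K23N), chts-1 (MS.0000016) at +10.4 points in PRCC(I371F), and 2 members with no gene name, MS.0000001 at -8.5 in KIN17(K23N) and MS.0000097 at -9.6 in PRCC(null) (adjusted p = 0.0436, 0.0352, 0.039 and 0.0289). chts-1 was lost with any library left out, and the other 3 were lost without KIN17(K23N) replicate 1, 2 or 3 or smg-4 control replicate 2 or 3, at an adjusted p = 0.0953 to 0.14, without KIN17(K23N) replicate 1 or 2 or smg-4 control replicate 1 or 3, at an adjusted p = 0.102 to 0.138 and without PRCC(null) replicate 1, 2 or 3 or smg-4 control replicate 2 or 3, at an adjusted p = 0.0517 to 0.109. On the included score alone Y79H2A.3 and chts-1 were not called (adjusted p = 0.0618 and 0.094).

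Among MX members, gly-5, a polypeptide N-acetylgalactosaminyltransferase that starts O-linked glycans on secreted proteins, had 3 alternative exons of 111, 105 and 102 nt at 1 place (chromosome III, 13197509 to 13203893, plus strand), compared in 3 pairs. All 3 exons are coding and multiples of 3. The share of the 111 nt exon against the 105 nt exon (MX.0000050) was 44.6%, 49.5% and 53% in KIN17(K23N), 64.4%, 62.6% and 60.7% in KIN17(M107I), 67.7%, 59.6% and 61.6% in PRCC(I371F), 53.7%, 59.3% and 59.3% in PRCC(null), against 71.7%, 79.6% and 70% in smg-4 control. All 12 mutant libraries were below the control and KIN17(K23N) was lowest. The share fell by 24.7 points in KIN17(K23N), where all 9 pairs differed by more than 15 points, and by 16.4 in PRCC(null) (adjusted p = 0.00141 and 0.00932; log2 odds -1.53 ± 0.20 and -1.05 ± 0.20, SE). Both calls held with any library left out and on the included score alone. The differences of -11.2 in KIN17(M107I) and -10.8 in PRCC(I371F) were not called (adjusted p = 0.0804 and 0.11). The 105 nt exon against the 102 nt exon (MX.0000058) was 87.7%, 85.6% and 82.5% in KIN17(K23N), 75.4%, 80.9% and 80% in KIN17(M107I), 86.2%, 77.6% and 79.6% in PRCC(I371F), 86%, 84.8% and 85.8% in PRCC(null), against 73.8%, 71.1% and 74.9% in smg-4 control, and rose by 12 and 12.3 points in KIN17(K23N) and PRCC(null) (adjusted p = 0.0101 and 0.0106). These calls held with any library left out but not on the included score alone, where the differences were +10.5 and +10.8 points (adjusted p = 0.0767 and 0.0582). The 111 nt exon against the 102 nt exon (MX.0000031) averaged 84.9% ± 0.6, 86.1% ± 1.5, 87.6% ± 4.8 and 88.9% ± 1.0 in the 4 mutant strains and 88.6% ± 1.8 in smg-4 control (SD, n = 3 each) and was called in none. On PSI the 105 nt exon gained on both of its partners in KIN17(K23N) and PRCC(null). The related gene gly-6 (MX.0000026, exons of 108 and 105 nt) averaged 65.9% ± 5.8, 63% ± 1.4, 69.9% ± 4.9 and 66.1% ± 3.6 in the mutant strains and 65.4% ± 2.1 in smg-4 control, and was called in none.

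unc-62 encodes a TALE homeodomain protein of the Meis and homothorax family, and its paired coding exons of 146 and 158 nt (MX.0000034, chromosome V, 4503949 to 4505891, plus strand) were used about equally in the control. The share of the 146 nt exon was 36.2%, 42.9% and 34.5% in KIN17(K23N), 32.1%, 33.6% and 25.9% in KIN17(M107I), 21.8%, 30.1% and 38.3% in PRCC(I371F), 39.9%, 38.7% and 32.7% in PRCC(null), against 53.7%, 51.5% and 55.3% in smg-4 control. All 12 mutant libraries lay at or below 42.9% and the 3 control libraries at or above 51.5%. It fell by 23, 23.4 and 16.4 points in KIN17(M107I), PRCC(I371F) and PRCC(null) (adjusted p = 0.0275, 0.0302 and 0.048) and was -15.7 points in KIN17(K23N) (adjusted p = 0.0595). It passed the 9-pair rule in KIN17(M107I). The KIN17(M107I) and PRCC(null) calls were lost with any 1 of the 6 libraries left out (adjusted p up to 0.0747 and 0.165), and the PRCC(I371F) call without PRCC(I371F) replicate 1 or 2 or smg-4 control replicate 1, 2 or 3, at an adjusted p = 0.0585 to 0.0798. On the included score alone it was called in none of the 4 strains.

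unc-44, the ankyrin gene of worm neurons, had an exon of 185 nt that excludes one of 779 nt (MX.0000024, chromosome IV, 5984556 to 5986656, plus strand). PSI was 26.1%, 30% and 30.9% in KIN17(K23N), 26.2%, 30% and 39.1% in KIN17(M107I), 24%, 29.8% and 14.9% in PRCC(I371F), 36%, 38.4% and 38.5% in PRCC(null), against 14.9%, 14.4% and 17.6% in smg-4 control. The PRCC(null) mean was highest; 1 library of PRCC(I371F), at 14.9%, reached into the control range. It rose by 22 points in PRCC(null), in all 9 pairs by more than 15, and in every leave-one-out fit (adjusted p = 0.00533; log2 odds 1.65 ± 0.29, SE). The increases of 13.4 in KIN17(K23N) and 16.2 in KIN17(M107I) (adjusted p = 0.039 and 0.0416) were lost with any 1 library left out. The score sum of this event was low, at 11.8 to 119, and on the included score alone the PRCC(null) difference was +3.64 points (adjusted p = 0.00631), while the calls of KIN17(K23N) and KIN17(M107I) were lost (adjusted p = 0.217 and 0.162).

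unc-32 encodes the a subunit of the vacuolar proton pump and has 2 alternative blocks. In the first block (chromosome III, 8906067 to 8907723, plus strand), 3 coding exons exclude each other, the first and last of 155 and 122 nt. The middle exon against the 122 nt exon (MX.0000060) was 12.7%, 12.9% and 17.5% in KIN17(K23N), 24.2%, 26.3% and 30.4% in KIN17(M107I), 36.6%, 28.3% and 23.2% in PRCC(I371F), 28.2%, 25.5% and 25% in PRCC(null), against 29.9%, 31% and 25.5% in smg-4 control; KIN17(K23N) was below all other strains. It fell by 14.4 points in KIN17(K23N) (adjusted p = 0.00678; log2 odds -1.23 ± 0.23, SE), in every leave-one-out fit, and differed by -1.8, +0.5 and -2.6 in the other 3 strains (adjusted p = 0.988, 1 and 0.829). The 155 nt exon against the 122 nt exon (MX.0000033) fell by 9.3 points in KIN17(K23N), to 49%, 50% and 47.4% in KIN17(K23N), against 62%, 58.2% and 54% in smg-4 control (adjusted p = 0.0435; lost without KIN17(K23N) replicate 1, 2 or 3 or smg-4 control replicate 1 or 2, at an adjusted p = 0.0847 to 0.128, and on the included score alone, at -1.28 points and an adjusted p = 0.877). The 155 nt exon against the middle exon (MX.0000014) was 86.8%, 87.1% and 80.9% in KIN17(K23N), against 79.2%, 75.5% and 77.5% in smg-4 control (+7.5 points, adjusted p = 0.11). In the second block (MX.0000043, 123 and 141 nt, chromosome III, 8907778 to 8910474), PSI was 5.2%, 5.3% and 11.5% in KIN17(K23N), 15.1%, 14.4% and 20.7% in KIN17(M107I), 24.2%, 17.8% and 19% in PRCC(I371F), 13.5%, 11% and 8.9% in PRCC(null), against 13.2%, 12.2% and 13.7% in smg-4 control, with differences of -5.7, +3.7, +7.3 and -1.9 points and no call (adjusted p = 0.093, 0.678, 0.321 and 0.792).

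**Figure D5:**
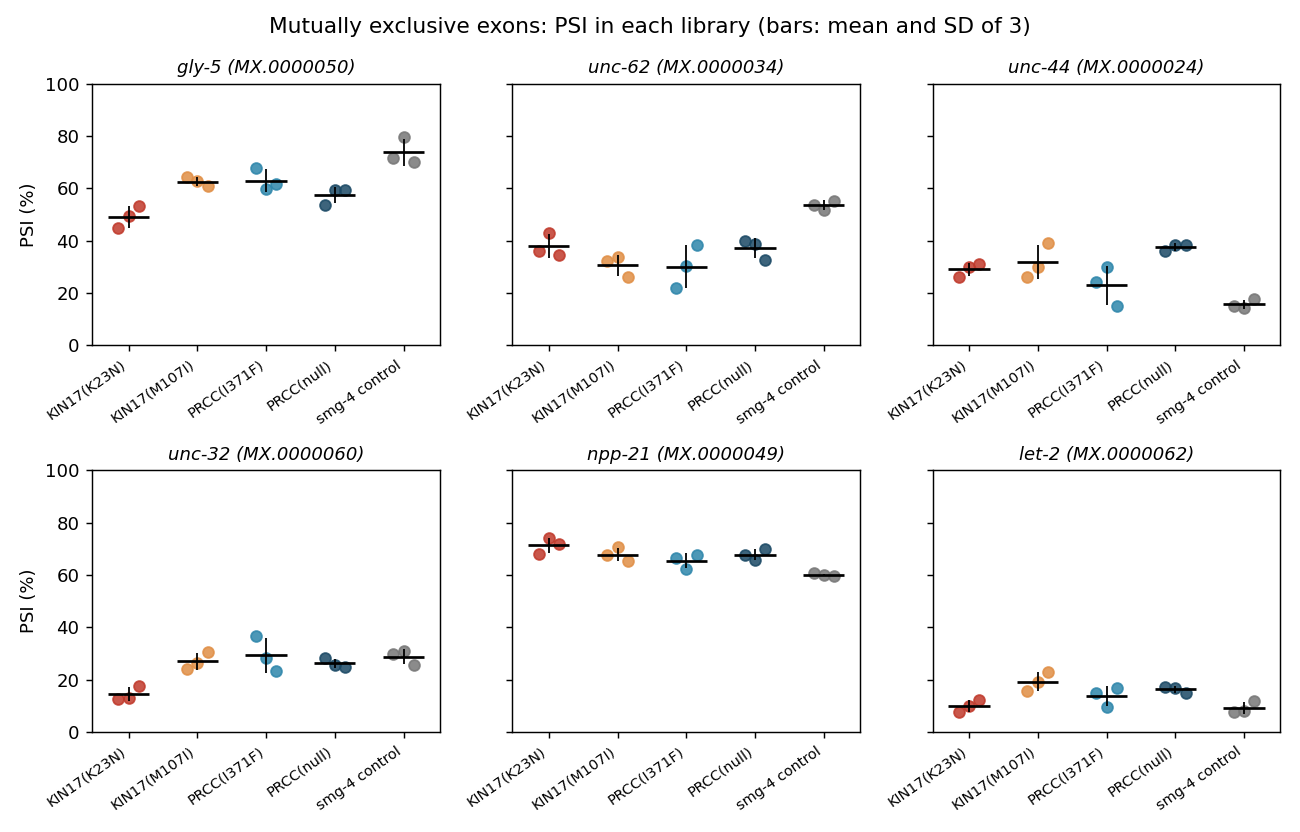
PSI in percent (vertical axis) of 6 MX events in each of the 15 libraries, by strain (horizontal axis); points are libraries, horizontal lines the mean of 3 and vertical lines 1 SD. gly-5 and unc-62 lie below the control in all 12 mutant libraries, the mean of unc-44 is highest in PRCC(null), unc-32 is lowest in KIN17(K23N), npp-21 (1 exon with moved ends) lies above the control in all 12, and let-2 is above the control in KIN17(M107I) and PRCC(null).

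lev-11, the tropomyosin gene on chromosome I, had 3 MX members and 1 MS member. The pair of 139 nt exons (MX.0000015) was almost all of 1 kind: 1.6%, 1.7% and 1.9% in KIN17(K23N), 1.9%, 2.0% and 1.9% in KIN17(M107I), 2.2%, 2.3% and 2.4% in PRCC(I371F), 2.1%, 2.4% and 2.0% in PRCC(null), against 2.5%, 2.3% and 2.1% in smg-4 control, which is -0.6 points in KIN17(K23N) (adjusted p = 0.00795), a call kept in every leave-one-out fit. The pair of 86 and 208 nt exons (MX.0000009) was 6.6%, 5.5% and 6.6% in KIN17(K23N), 5.8%, 7.2% and 7.4% in KIN17(M107I), 8.9%, 10.6% and 8.1% in PRCC(I371F), 16.3%, 13.3% and 13.8% in PRCC(null), against 10.4%, 9.3% and 7.9% in smg-4 control. It was lower by 2.9 points in KIN17(K23N) and higher by 5.3 in PRCC(null) (adjusted p = 0.0446 and 0.0139); these calls were lost without KIN17(K23N) replicate 1, 2 or 3 or smg-4 control replicate 1 or 2, at an adjusted p = 0.0644 to 0.158 and without PRCC(null) replicate 1, at an adjusted p = 0.0517. The same 2 exons, included together or skipped together (MS.0000138), averaged 5.3% ± 0.2 in KIN17(K23N) and 7.2% ± 0.1 in smg-4 control (SD, n = 3 each; -1.9 points, adjusted p = 0.00795; called in every leave-one-out fit). The pair of 118 nt exons (MX.0000068) was 29.1%, 19.1% and 23.1% in KIN17(K23N), 24%, 22.7% and 20.5% in KIN17(M107I), 25.6%, 26% and 32.1% in PRCC(I371F), 39.7%, 35.5% and 35.3% in PRCC(null), against 31.7%, 29.5% and 25% in smg-4 control and not called. atn-1 encodes alpha-actinin of the dense body and Z line. Its coding exons of 161 and 83 nt (MX.0000056, chromosome V, 12480343 to 12481357, plus strand) gave 76%, 80.1% and 85.7% in KIN17(K23N), 72.5%, 68.4% and 63.7% in KIN17(M107I), 59.8%, 66.2% and 70.5% in PRCC(I371F), 69%, 77.9% and 67.3% in PRCC(null), against 68.9%, 60.5% and 64.7% in smg-4 control, +15.9 points in KIN17(K23N) (adjusted p = 0.0292; lost without KIN17(K23N) replicate 2 or 3 or smg-4 control replicate 2 or 3, at an adjusted p = 0.0678 to 0.107, and on the included score alone, at an adjusted p = 0.136) and no call elsewhere.

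Of the textbook exclusive exons, let-2 (a type IV collagen chain of basement membranes, whose exon choice changes from embryo to adult) used its 108 nt exon against its 111 nt exon (MX.0000062, chromosome X, 16386027 to 16386987, minus strand) at 7.7%, 9.9% and 12.2% in KIN17(K23N), 15.7%, 18.9% and 23% in KIN17(M107I), 14.8%, 9.4% and 16.8% in PRCC(I371F), 17.1%, 16.9% and 14.9% in PRCC(null), against 7.5%, 8.1% and 11.8% in smg-4 control. It was +10.1 points in KIN17(M107I) (adjusted p = 0.0464), a call lost without KIN17(M107I) replicate 1, 2 or 3 or smg-4 control replicate 1 or 2, at an adjusted p = 0.0761 to 0.156, and on the included score alone (adjusted p = 0.0663); KIN17(K23N) differed by +0.8 points. egl-15, the fibroblast growth factor receptor gene, used its 351 nt exon against its 195 nt exon (MX.0000003, chromosome X, 11017370 to 11018384, plus strand) at 73.7%, 61.9% and 80.8% in KIN17(K23N), 89.6%, 86% and 91.8% in KIN17(M107I), 90.9%, 83.3% and 88.9% in PRCC(I371F), 92.3%, 88.9% and 84.7% in PRCC(null), against 93.8%, 73.3% and 96.2% in smg-4 control. The KIN17(K23N) difference of -15.6 points was not called (adjusted p = 0.154), and the control itself ranged from 73.3% to 96.2%. Over the 12 members in egl-15, let-2, lev-11, slo-1, unc-32 and unc-62 together, 5 were called lower and 0 higher in KIN17(K23N) (3.98% and 4.86% of all annotated events), 1 higher and 1 lower in KIN17(M107I) (1.93% and 1.58% of all), 1 lower in PRCC(I371F) (0.875% of all), and 1 higher and 1 lower in PRCC(null) (5.91% and 3.5% of all). The 5 lower calls in KIN17(K23N) came from 2 genes, 3 in lev-11, of which 2 concern the same pair of exons, and 2 in unc-32 that share the 122 nt exon, so they are not independent. Their median absolute difference was 5.33, 4.11, 1.31 and 2.53 percentage points in these strains, against 4.44, 2.86, 2.62 and 3.64 over all 72 MX members, the class of 11 of the 12, and 1.54, 1.39, 1.38 and 1.73 over all 2285 annotated events.

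The other MX calls include the 5 members whose forms overlap. In npp-21, a nuclear pore protein of the Tpr family, 1 exon is 272 nt in the included form and 257 nt in the other, with its ends moved by 9 and 6 nt (MX.0000049, chromosome II, 7605809 to 7606677, plus strand). The longer form was at 68.1%, 74.1% and 71.7% in KIN17(K23N), 67.6%, 70.6% and 65.3% in KIN17(M107I), 66.7%, 62.2% and 67.6% in PRCC(I371F), 67.7%, 65.7% and 69.8% in PRCC(null), against 60.6%, 59.9% and 59.7% in smg-4 control. It rose by 11.3 points in KIN17(K23N), in every leave-one-out fit, and by 7.7 in PRCC(null) (adjusted p = 0.00519 and 0.0394); the PRCC(null) call was lost with any library left out and on the included score alone (adjusted p = 0.283), where KIN17(K23N) was at an adjusted p = 0.04998. pign-1, of glycosylphosphatidylinositol anchor synthesis, had 1 exon of 138 or 120 nt with ends moved by 7 and 11 nt (MX.0000029, chromosome I, 3066537 to 3067881, plus strand). The longer form was at 28.3%, 29.9% and 33.5% in KIN17(K23N), 25.4%, 23.2% and 25.3% in KIN17(M107I), 22.6%, 24.2% and 18.4% in PRCC(I371F), 22%, 21.6% and 19.8% in PRCC(null), against 19.6%, 22.9% and 15.1% in smg-4 control, +11.3 points in KIN17(K23N) (adjusted p = 0.00993) in every leave-one-out fit, but +0.17 points on the included score alone (adjusted p = 1). KIN17(K23N) lay above all other strains here in PSI. nck-1, an SH2 and SH3 adaptor, had 1 exon of 174 or 165 nt with ends moved by 3 and 6 nt (MX.0000013, chromosome X, 4149817 to 4150598, minus strand). The longer form was at 15%, 16.5% and 16.4% in KIN17(K23N), 12%, 14.3% and 11.7% in KIN17(M107I), 14.8%, 13.5% and 16.7% in PRCC(I371F), 14.7%, 12.3% and 12.6% in PRCC(null), against 12.1%, 7.8% and 8.9% in smg-4 control, +6.4 points in KIN17(K23N) (adjusted p = 0.00898), also in every leave-one-out fit, but +0.37 points on the included score alone (adjusted p = 0.795). trak-1, a kinesin adaptor for mitochondria (MX.0000017, 1 exon of 43 or 69 nt with ends moved by 6 and 32 nt), rose by 6.0 points in KIN17(K23N) and 6.4 in PRCC(null), and etr-1, a CELF family RNA-binding protein (MX.0000027), by 7.0 in KIN17(K23N) (adjusted p = 0.0294, 0.0237 and 0.0294). These were lost without KIN17(K23N) replicate 1 or 2 or smg-4 control replicate 1 or 2, at an adjusted p = 0.0536 to 0.109, without PRCC(null) replicate 1 or 2 or smg-4 control replicate 1 or 2, at an adjusted p = 0.057 to 0.0878 and without KIN17(K23N) replicate 1 or 2 or smg-4 control replicate 1 or 3, at an adjusted p = 0.0673 to 0.108. On the included score alone the etr-1 difference was -0.595 points, and the trak-1 call was lost in PRCC(null) (adjusted p = 0.0523) and kept in KIN17(K23N). del-6, a DEG/ENaC channel gene (MX.0000037), fell by 2.0 points in PRCC(null) to 1.3% ± 0.4, against 3.3% ± 0.7 in smg-4 control (SD, n = 3 each; adjusted p = 0.0317; lost without PRCC(null) replicate 2 or 3 or smg-4 control replicate 1, 2 or 3, at an adjusted p = 0.0515 to 0.123). In 2 called members the score sum ran over nearly the whole scale between libraries: unc-43, the worm CaMKII (MX.0000046, -7.2 points in KIN17(K23N), adjusted p = 0.0123, score sum 2.7 to 1000), and asns-2, an asparagine synthetase (MX.0000051, 1 exon of 707 or 699 nt with each end moved by 4 nt, +7.6 points in KIN17(M107I), adjusted p = 0.0285, score sum 4.7 to 1000). The unc-43 call was lost without smg-4 control replicate 2, at an adjusted p = 0.0554, the asns-2 call with any library left out, and both on the included score alone (adjusted p = 0.232 and 0.997).

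Some members differed widely and without overlap, yet were not called. gck-1, a germinal centre kinase (MX.0000006, chromosome V, 8952440 to 8953710, plus strand), was at 21.1%, 20.9% and 28.5% in KIN17(K23N), 25.7%, 48.3% and 39.7% in KIN17(M107I), 44.3%, 40.2% and 39.6% in PRCC(I371F), 34.7%, 35.6% and 26.7% in PRCC(null), against 40%, 61.2% and 36.8% in smg-4 control. The KIN17(K23N) libraries all lay below the control, by 22.5 points on average (adjusted p = 0.0568). fbl-1, fibulin of the extracellular matrix (MX.0000057, chromosome IV, 9541584 to 9543026, plus strand), was at 25%, 32.6% and 47% in KIN17(K23N), 48.8%, 42.7% and 63.9% in KIN17(M107I), 68.3%, 35.8% and 37.7% in PRCC(I371F), 43.3%, 35.5% and 32.7% in PRCC(null), against 12.5%, 31.7% and 34.2% in smg-4 control. The differences were +25.7 points in KIN17(M107I) and +21.2 in PRCC(I371F) (adjusted p = 0.221 and 0.362), with a control that spanned 12.5% to 34.2%. ZC434.9 (MS.0000113) was at 33%, 33.4% and 43.1% in KIN17(M107I), against 20.9%, 18.5% and 23.6% in smg-4 control, +15.5 points (adjusted p = 0.254). Among the members whose control stood nearest to an even choice, unc-62 and sma-9 were called as given above, and the others besides gck-1 were not: egl-8, a phospholipase C beta of synapses (MS.0000085), differed by +3.2, +2.3, +4.3 and +12.5 points, ate-1, an arginyltransferase (MS.0000168), by -5.7, +3.4, +2.0 and +1.4, and gei-17, a SUMO ligase of the PIAS family (MX.0000067, 1 exon with both ends moved), by +0.7, +2.3, +1.2 and -0.8 in the 4 strains, taken in the same order as above (adjusted p of 0.296 or more in all 12 tests).

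To ask whether alleles of 1 gene act on different members, the strains of a gene were compared with each other. Between PRCC(null) and PRCC(I371F), 4 members were called at an adjusted p of 0.05, 3 higher and 1 lower in PRCC(null) (2.06% of all annotated events, 1.36% higher and 0.7% lower); 0 differed by over 20 percentage points (0.306% of all) and 0 passed the 9-pair rule (0.7% of all). nono-1 (MS.0000137) and clik-3 (MS.0000049) were 7.0 and 10.4 points higher in PRCC(null), lev-11 (MX.0000009) was 5.3 points higher and klp-12 (MS.0000143) 8.2 points lower (adjusted p = 0.0189, 0.0447, 0.0383 and 0.00752). In each, the 3 libraries of PRCC(null) did not overlap those of PRCC(I371F), as in 19.9% of all annotated events. The klp-12 call held with any library left out but not on the included score alone, where the difference was -5.00 points (adjusted p = 0.0532); clik-3 was also lost there (+9.49 points, adjusted p = 0.0786), while nono-1 and lev-11 were kept. The calls other than klp-12 were lost without PRCC(null) replicate 1 or 3 or PRCC(I371F) replicate 1 or 3, at an adjusted p = 0.052 to 0.0726 for nono-1, without PRCC(null) replicate 1 or 2 or PRCC(I371F) replicate 1 or 3, at an adjusted p = 0.119 to 0.156 for clik-3 and without PRCC(null) replicate 1, 2 or 3 or PRCC(I371F) replicate 1 or 3, at an adjusted p = 0.0563 to 0.136 for lev-11. These 2 strains were numbered in different library sets. Between KIN17(M107I) and KIN17(K23N), 0 members were called by limma (0.131% of all annotated events, and 0.0438% with over 20 percentage points), with 36 members at an unadjusted p under 0.05 (13.7% of all) and 0 past the 9-pair rule (0.175% of all). The smallest adjusted p was 0.0586, for asns-2 (MX.0000051), +7.8 points. For pqn-22 the difference was -19.5 points and for unc-32 (MX.0000060) +12.6 (adjusted p = 0.113 and 0.066). With 3 libraries a strain such differences were within the error of this fit, which does not show that the alleles act alike. The KIN17 strains also differ in their unc-73 allele and library set, which cannot be told apart from the dxbp-1 allele. A test of any difference among the 5 strains called 29 members at an adjusted p of 0.05 (12.7% of all annotated events), and 6 with a range of strain means over 20 points (3.68% of all): unc-53, pqn-22, Y69H2.3 (MS.0000172), unc-44, unc-62 and gly-5 (MX.0000050).

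Genes with 3 or more members of 1 class otherwise gave few calls. The 13 overlapping runs of F49E2.5 had control means of 85.3% to 97.5% and differed by at most 10.9 percentage points, in PRCC(I371F) (MS.0000028, adjusted p = 0.221). The 6 runs of pat-12, a gene of the muscle attachment to the cuticle, had control means of 42.6% to 100%, and the difference of largest size was -11.2 points in PRCC(null) (MS.0000109, adjusted p = 0.0711). In unc-49, the GABA-A receptor gene, 3 runs had control means of 79.7% to 100% with up to -11.8 points in PRCC(null) (MS.0000142, adjusted p = 0.16). The 4 MS runs of unc-43 and the 4 of unc-44 stayed at 91.2% or more in every library, and the 5 of sup-26, an RNA-binding protein gene, at 98.3% or more, with differences of up to 1.89 points in size in unc-44, 1.30 in unc-43 and 0.565 in sup-26. In these 6 genes no MS member was called by limma in any of the 4 strains.

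The 24 MS members called in at least 1 strain lay lower on the PSI scale than the 135 others: their median control PSI was 37.1% against 99.2%, and 12 of 24 lay between 20% and 80%, against 22 of 135. An event at 100% in every library cannot be called, so this is a description. The length of the run was a multiple of 3 in 21 of 24 (87.5%) against 92 of 135 (68.1%). The 18 called MX members had a median control PSI of 20.6% against 54.3% for the 54 others, and 9 of 18 lay between 20% and 80%, against 33 of 54; the exons differed by a multiple of 3 in 13 of 18 (72.2%) against 46 of 54 (85.2%). The score sum was at least 500 in all libraries for 18 of 24 and 12 of 18 called members, against 104 of 135 and 39 of 54 others. The 24 and 18 called members fell in 18 and 15 loci.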

How the data were processed

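RNA sequencing libraries from 5 strains, 3 each, had been trimmed, aligned by the authors in 2 passes with a modified STAR to ce10, and scored with junctionCounts on events of Ensembl Archive 65. Each deposited score, 0 to 1000, stands for 1 form of an event. PSI was the included over the summed score of both forms; scores of 1 and 999 that add up to 1000 were read as 0 and 100%. The deposited score files hold no reads, so depth is unknown and no count model was used.

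PSI was converted to log2 odds with an offset of 0.01 and fitted with limma 3.58.1 (R 4.3.3, trend and robust) on all 15 libraries and all 2285 events scored in each, with Benjamini-Hochberg adjustment over all of them; the fit was tested on simulated data. Tables were handled in Python 3.11.15 with pandas 2.3.3 and numpy 2.4.6. The inspection of candidate events in a genome browser, part of the study's selection, was not repeated. Events named in detail were those past a rule or call in a strain, the largest differences, those nearest 50% in the control, those with the largest replicate spread and those of 6 fixed genes; other called events were named after their values were seen. The members and lists were chosen with earlier results of these data known.

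Coordinates are those of the files, in ce10 and counted from 1. Gene names were not in the event files and came from exact matches of exon and intron lengths to Ensembl 115 transcripts of WBcel235 on the same chromosome and strand: 195 members by a whole form, 21 by a run of introns and 6 by an exon shared with a matched event. No genome of the files' build was at hand, so no sequence is shown. Markers, tissue makeup and the mutated alleles were not analysed here. The alternatives covered thresholds, offsets, the scale, the events in the fit, the libraries in the fit and each library left out.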

Additional observations from a re-analysis of the deposited data

Results flagged for a closer look

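In 4 events the effects of the 2 PRCC alleles differed by the direct limma test of PRCC(null) against PRCC(I371F), adjusted over all annotated events. clik-3 (MS.0000049) was 10.4 percentage points higher in PRCC(null) (adjusted p = 0.0447), nono-1 (MS.0000137) was 6.95 points higher (adjusted p = 0.0189) and lev-11 (MX.0000009) was 5.27 points higher (adjusted p = 0.0383), while klp-12 (MS.0000143) differed by -8.18 points (adjusted p = 0.00752). In each of the 4, all 3 PRCC(null) libraries lay on 1 side of the 3 PRCC(I371F) libraries, which 19.9% of all annotated events did. The clik-3 and klp-12 calls were lost on the included score alone (adjusted p = 0.0786 and 0.0532), and the clik-3, nono-1 and lev-11 calls with single libraries left out (adjusted p up to 0.156, 0.0726 and 0.136), so that none of the 4 held under every one of these alternatives. The library numbers of these strains come from different sets, so set and allele cannot be told apart.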

How the results depend on the processing

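The counts were small and moved with the thresholds. With pairwise differences of at least 20 points, the 9-pair rule left 0 members in KIN17(K23N) and 1 member each in KIN17(M107I) and PRCC(null), and with at least 10 points 3 passed in PRCC(I371F). With no threshold on the average difference, limma called 25 members in KIN17(K23N), 9 members in KIN17(M107I), 9 members in PRCC(I371F), 25 members in PRCC(null), 4 in PRCC(null) against PRCC(I371F), and 29 over the 5 strains. With only the 6 libraries of a comparison in the fit, 0 were called past 20 points in each of the 4 strains. On the included score alone, 0 members passed the 9-pair rule in KIN17(K23N), KIN17(M107I) and PRCC(I371F). There, limma called 0 members past 20 points in KIN17(M107I) and PRCC(I371F), and 3 over the 5 strains with a range over 20 points. A minimum score sum of 500 in all 15 libraries, chosen after seeing the data, left 1, 0 and 0 members past the rule in KIN17(M107I), PRCC(I371F) and PRCC(null), 1, 1 and 0 called by limma past 20 points, and 2 over the 5 strains. The causes were not tested.

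With 1 library left out, the 9-pair rule gave 1 to 3 members in KIN17(K23N) and 1 to 3 in PRCC(I371F). The limma calls past 20 points were 1 to 3 in KIN17(K23N) (1 without KIN17(K23N) replicate 1 or 3), 0 to 2 in KIN17(M107I) (0 without its replicate 1 or 3 or smg-4 control replicate 2), 0 to 2 in PRCC(I371F) (0 without its replicate 1 or 2 or smg-4 control replicate 2 or 3), 0 to 1 in PRCC(null) against PRCC(I371F) (1 without PRCC(I371F) replicate 2) and 0 to 1 in KIN17(M107I) against KIN17(K23N) (1 without KIN17(K23N) replicate 3).

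The difference changed sign on the included score alone in 8 called cases: T26C5.3 (MS.0000019, -1.11 points in KIN17(K23N)), bca-2 (MS.0000075, -1.65 in KIN17(K23N) and -2.02 in PRCC(null)), pqn-22 (MS.0000157, 1.56 in KIN17(M107I) and 1.56 in PRCC(I371F)), Y69H2.3 (MS.0000172, 3.92 in PRCC(I371F) and 5.58 in PRCC(null)) and etr-1 (MX.0000027, -0.595 in KIN17(K23N)). Of 1059 alternative values for 72 called differences, 729 kept direction and call, 322 kept direction but lost the call and these 8 turned. Of the 72 called differences, 0 kept direction and call under every alternative, those that held with any library left out included. No paired analysis was possible because the replicate numbers only follow the accession order and pair no libraries across strains.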
